A study of Mus musculus with 2 samples.

Results

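The loci of Klf4 and Map2k7 were examined in 1 list of 8148 intervals, the regions that the authors listed as enriched when sheared chromatin was pulled down with a KLF4 antibody and its DNA sequenced (chromatin immunoprecipitation sequencing, ChIP-seq). The members were the intervals overlapping a window around each gene, on chromosome 4 at 55440000 to 55645000 for Klf4 and on chromosome 8 at 4138000 to 4348000 for Map2k7 (mm9). The Map2k7 window held 5 intervals and the Klf4 window held 0, so 5 of the 8148 intervals are described as members. For comparison, the autosomes were divided into tiles of equal length: 3.53% of tiles of 210 kb held at least 5 intervals, and 70.5% of tiles of 205 kb held none. The cells were GFP+CD4+CD8+ and were sorted from bone marrow 4 weeks after transplantation, in mice in which NOTCH1 had induced T-ALL (T cell acute lymphoblastic leukaemia), a cancer of T cell precursors.

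The series has 2 libraries, the KLF4 ChIP library and an input library of sheared DNA without antibody, and only the ChIP list was analysed here. Both libraries carry 1 strain name, Klf4flox/flox vav-Cre on a C57BL/6 background, in which a recombinase expressed throughout the blood lineages removes the floxed part of Klf4. The genotype label of the ChIP library is KLF-4 KO and that of the input is Normal. A knockout sample would leave the antibody without its intact target. The intervals are therefore called listed regions, and whether KLF4 was bound at any of them is not known. A list of regions holds no expression values, so neither the cell identity nor the presence of KLF4 was checked.

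KLF4, a Krüppel-like factor, is a transcription factor with zinc fingers. It binds GC-rich and CACCC-type sequences and is known in blood cells for restraining proliferation, and in stem cells as a reprogramming factor. Map2k7, also called Mkk7, is a dual-specificity kinase that phosphorylates and activates the JNK kinases, which act on transcription factors such as Jun. Map2k4 is the other kinase that activates JNK. The series title links inactivation of KLF4 in T-ALL to activation of the Map2k7 and Jnk pathway, so the question put to the list is whether a region at either gene was listed.

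The sequence just upstream of each gene is shown for description. Whether it relates to the listing of a region at Map2k7 and of none near Klf4 was not tested. Each is the run of 250 bases before the first annotated start, from RefSeq (GRCm38.p6), written 5′ to 3′ in the direction of transcription. Capitals mark CCNCNCCC, a loose form of the KLF and SP type of site, and GGGCGG, the GC box, on either strand. The positions are those of GRCm38.p6, were not converted, and cannot be set beside the mm9 positions of the intervals.

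Klf4, chr4:55532476-55532725, minus strand: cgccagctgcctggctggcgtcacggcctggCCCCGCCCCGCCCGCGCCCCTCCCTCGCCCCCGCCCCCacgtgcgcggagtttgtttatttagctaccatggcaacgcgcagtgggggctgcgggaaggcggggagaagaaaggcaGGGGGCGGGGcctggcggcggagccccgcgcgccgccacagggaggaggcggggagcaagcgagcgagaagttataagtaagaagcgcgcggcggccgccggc

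Map2k7, chr8:4238490-4238739, plus strand: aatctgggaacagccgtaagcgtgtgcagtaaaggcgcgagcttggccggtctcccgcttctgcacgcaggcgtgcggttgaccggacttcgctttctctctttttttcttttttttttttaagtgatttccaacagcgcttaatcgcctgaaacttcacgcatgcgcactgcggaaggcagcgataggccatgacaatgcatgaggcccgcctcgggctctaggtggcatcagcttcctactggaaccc

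The Klf4 run was the richer in G and C. Its GC content was 74.0% and it held 32 CpG dinucleotides, against a median of 52.4% and 6 over the 32851 promoter runs of the table. The Map2k7 run had a GC content of 54.4% and 19 CpG, a CpG number that 19.7% of all promoter runs reached. A separate annotated start of Map2k7 had a GC content of 44.4% and 0 CpG in the same length.

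The motif CCNCACCC, which holds the core of the KLF4 site, was found in neither the Klf4 run nor the runs of both Map2k7 starts, and its shorter core CACCC was also found in none of them. Of all promoter runs, 14.9% held CCNCACCC and 52.0% held CACCC on either strand. The looser CCNCNCCC, searched after those were seen to be missing, matched 9 times in the Klf4 run and 0 times in either Map2k7 run. Matches in the Klf4 run overlap one another within the capitalised stretches, so they are not 9 separate sites. Any match at all was held by 45.9% of all runs, and the share with 9 or more was not counted. The GC box GGGCGG, added at the same time, matched 4 times for Klf4 and 0 times for either Map2k7 start, against 32.7% of all runs with a match. These motifs overlap, since CCNCACCC contains CACCC and is itself a form of CCNCNCCC, and the GC box can lie within a CCNCNCCC match. The matches describe letters in these windows and not occupied sites.

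An interval was listed at the start side of Map2k7. No annotation in mm9 was used here, so the gene was taken as the inner stretch left when 100 kb is removed from each end of the window, at 4238000 to 4248000 for Map2k7 and 55540000 to 55545000 for Klf4. The edges of these stretches are whole kilobases, so distances to them are not exact distances to a start site. Map2k7 lies on the plus strand in the RefSeq table, which puts its start at the lower edge. The interval on chromosome 8 at 4238240 to 4239449 began 240 bp above that edge. Its summit, the position of the highest signal, lay at 4238864, or 864 bp above the edge. Of all summits in the list, 94.0% lay at multiples of 16 bp, this one included, so its position is not exact to the base. The interval was the only one overlapping the inner stretch of Map2k7. Of 237673 autosomal tiles of 10 kb, the length of that stretch, 3.33% overlapped an interval. The tiles lie on a fixed grid and not at genes, so this share does not say how often a gene overlaps one.

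This interval was of ordinary size for the list. Its height, the authors' score for each peak on a scale that is named nowhere, was 17, and its width was 1210 bp. Over the whole list the median was 15 for height (quartiles 13 and 19) and 1137 bp for width (quartiles 896 and 1508.5 bp). A height of 17 or more was reached by 3355 intervals, or 41.2% of the list, and 552 intervals shared the value of 17, so its rank lay between 2804 and 3355. Among the 459 intervals of chromosome 8, 204 reached that height. Of the list, 44.0% of intervals were wider.

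The other 4 intervals of the Map2k7 window lay on both sides of the gene. An interval at 4165786 to 4166711 had a height of 12 and a width of 926 bp, and ended 71.3 kb before the inner stretch. Beyond the upper edge, an interval at 4250211 to 4251240 had a height of 13 and a width of 1030 bp, and began 2211 bp from the stretch. An interval at 4258311 to 4259635, 10.3 kb from the stretch, had a height of 14 and a width of 1325 bp. The farthest, at 4324373 to 4325769, had a height of 18 and a width of 1397 bp and began 76.4 kb away. The tallest member was therefore not the one at the gene, although the difference between heights of 17 and 18 has no replicate against which it can be judged.

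**Figure D1:**
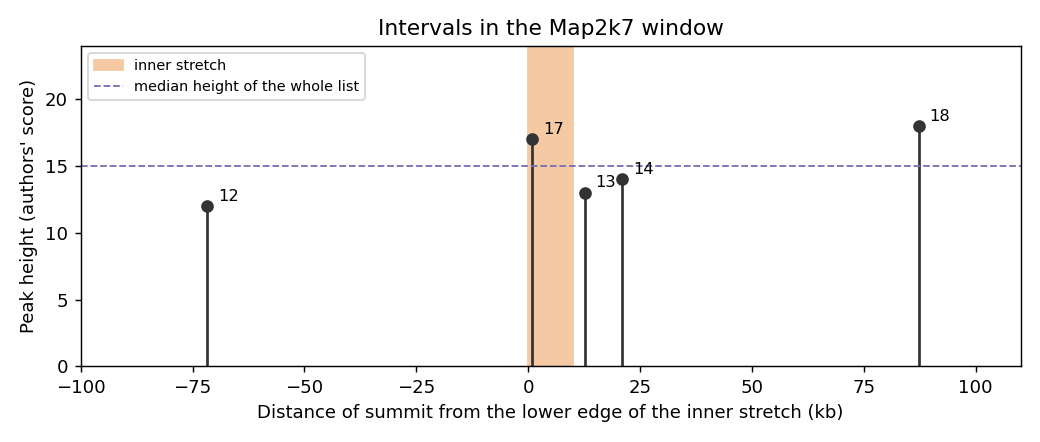
Height of each of the 5 intervals in the Map2k7 window (vertical axis, the authors' score) against the distance of its summit from the lower edge of the inner stretch (horizontal axis, kb). The shaded band is the inner stretch, the dashed line is the median height of the list (15), and the interval of height 17 is the only one within the band.

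In height the members ranged from 12 to 18 with a median of 14, just under the list's median of 15. The height of the list's median was reached by 2 of the 5, against 57.3% of all intervals. The interval of height 18 was matched or exceeded by 34.4% of the list, and that of height 12 by 86.8%. The members thus ran from the upper middle to the lower ranks. Their widths ran from 926 to 1397 bp with a median of 1210 bp, and 3 of the 5 were wider than the median interval. Among these 5, the narrowest was the lowest and the widest was the tallest.

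**Figure D2:**
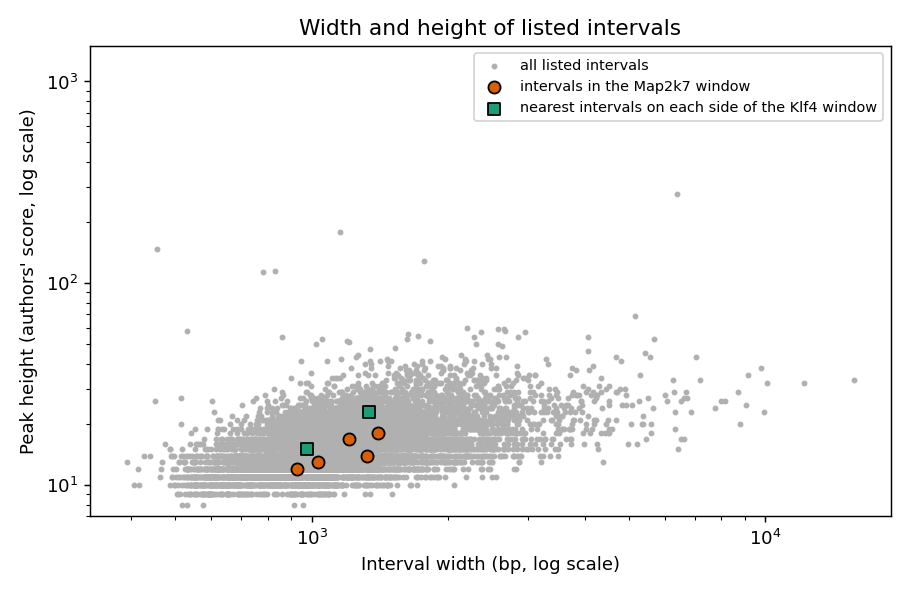
Peak height (vertical axis, log scale) against interval width in bp (horizontal axis, log scale) for all 8148 intervals (grey points), the 5 intervals of the Map2k7 window (circles) and the nearest interval on each side of the Klf4 window (squares). The Map2k7 intervals lie between heights of 12 and 18, within the bulk of the list, and the squares are at 23 and 15.

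The Map2k7 intervals lay between longer empty stretches. They spanned 160 kb from the first to the last. The gaps between them were 71.5, 10.8, 7.07 and 64.7 kb in order along the chromosome, against a median autosomal gap of 52.0 kb. The gaps of 10.8 and 7.07 kb followed the interval at the start side of Map2k7, and the first and last of the 4 were longer than the median. The Map2k7 intervals were preceded by a gap of 489 kb and followed by one of 287 kb. Of autosomal gaps, 12.9% and 18.6% were at least as long as these. Such gaps made up 75.8% and 83.1% of the autosomal span, so empty stretches of these lengths were usual. The 3 intervals nearest the gene each had 4 others within 100 kb, a number that 36.3% of autosomal intervals reached, and the outer 2 had 3 others. The median over autosomal intervals was 2 others.

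A window with 5 intervals was uncommon among equal stretches of the autosomes, while its tallest height was modest. Of 11309 autosomal tiles of 210 kb, 29.7% held at least 1 interval and 3.53% held at least 5. On chromosome 8 the share with at least 5 was 4.49% of 601 tiles. The tiles were placed on a fixed grid and not at genes, and peaks of the list lie close together in places, so the shares do not say how often a window around a gene holds 5. Exactly 5 intervals lay in 124 tiles, and the tallest interval in them had a median height of 23 (quartiles 20 and 27.25). In 87.9% of these tiles the tallest interval reached 18, the top height of the Map2k7 window.

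The order of neighbouring genes was read from the RefSeq table for GRCm38.p6, for names only. Protein-coding genes before Map2k7 are, from the nearest outward, Lrrc8e, which encodes a subunit of a volume-regulated anion channel, then Prr36 and Evi5l. After Map2k7 follow Tgfbr3l, Snapc2, which encodes a subunit of the complex that starts small nuclear RNA transcription, Ctxn1, Timm44, a part of the mitochondrial import machinery, Elavl1, an RNA-binding protein that stabilises messages, and Ccl25, a chemokine of the thymus and gut. Distances from the intervals to these genes were not measured, and none of the 5 was assigned to a gene. The interval overlapping the inner stretch is the one that the definition of the window places at Map2k7.

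No interval was listed at Klf4. The window of 205 kb held 0 intervals, as did 70.5% of 11586 autosomal tiles of that length and 69.6% of the 740 on chromosome 4, so the empty window was the usual outcome for a stretch of its length. The inner stretch of 5 kb was empty as well, as were 98.1% of autosomal tiles of that length. The depth of the library and the threshold for listing a region are unknown, so the absence of an interval says only that no region there was listed. The strain name and the KLF-4 KO label add a further limit at the gene itself. If the floxed part of Klf4 was removed in these cells, that part could give no reads, whatever was bound elsewhere. Whether it was missing was not tested.

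The nearest interval to Klf4 lay outside the window, on the lower side, at 55362337 to 55363674. It had a height of 23, which 13.7% of the list reached, and a width of 1338 bp, and it ended 176 kb from the inner stretch. Klf4 lies on the minus strand in the RefSeq table, so this interval is on the side of the gene's 3′ end. On the side of the start, the nearest interval was at 56814632 to 56815605, with a height of 15 and a width of 974 bp, and began 1.27 Mb from the inner stretch. The interval of height 23 had no other interval within 100 kb.

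**Figure D3:**
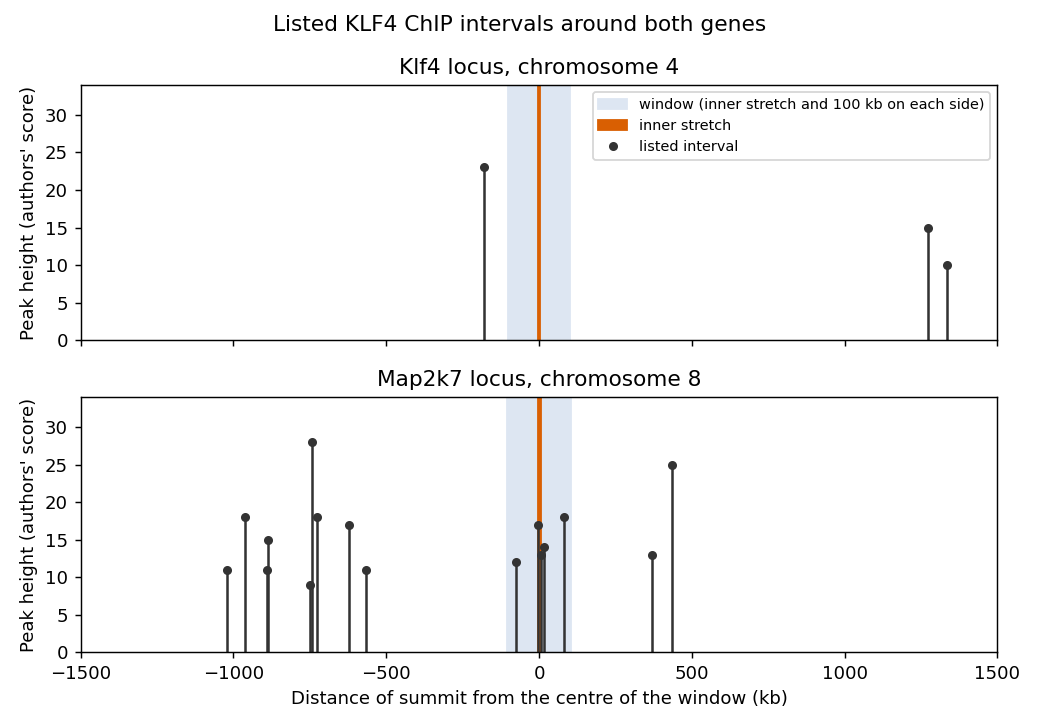
Height of each listed interval (vertical axis, the authors' score) against the distance of its summit from the centre of the window (horizontal axis, kb) at Klf4 (top) and Map2k7 (bottom). The wide band is the window and the narrow band the inner stretch; the Klf4 window is empty with its nearest interval of height 23 on the lower side, and the Map2k7 window holds 5 intervals.

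Klf4 sat inside an empty stretch of 1.45 Mb, at 55363675 to 56814631. Of the 8050 autosomal gaps, 404 (5.02%) were at least as long, and together such gaps made up 53.4% of the autosomal span, so a position chosen along the autosomes falls in one more often than not. On chromosome 4 it was the 26th longest of 499 gaps. The gene lay toward the lower end of this gap, with 12.2% of the gap below the inner stretch. The gap on the other side of the interval of height 23 was longer, at 1.91 Mb, which left that interval alone between 2 long empty stretches.

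**Figure D4:**
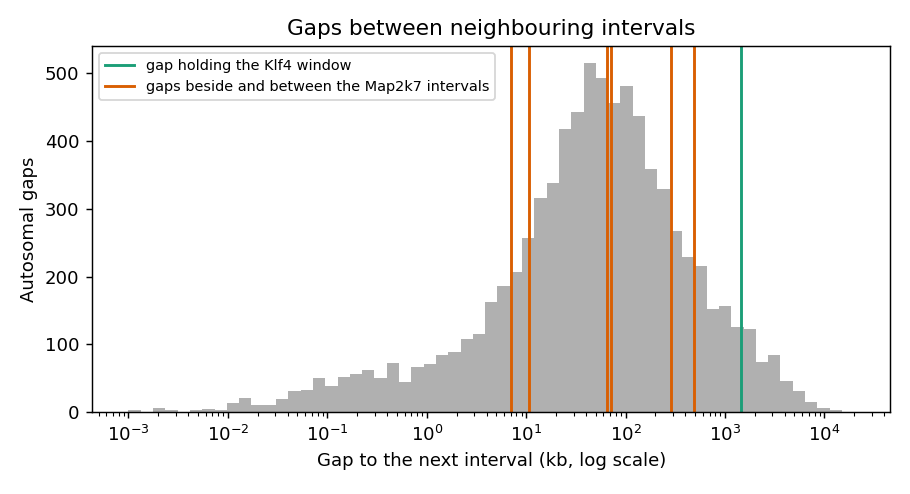
Number of autosomal gaps (vertical axis) by the gap between neighbouring intervals in kb (horizontal axis, log scale). The line for the gap of 1.45 Mb that holds the Klf4 window lies in the long tail, and the 6 lines for the gaps beside and between the Map2k7 intervals run from 7.07 to 489 kb.

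The gene table places Klf4 between Rad23b, which encodes a protein of DNA repair and protein turnover, and Actl7b, an actin-like gene of the testis. Between Rad23b and Actl7b it lists no other protein-coding gene and 15 other entries, of non-coding genes and pseudogenes. Between the genes flanking Map2k7, Lrrc8e and Tgfbr3l, it lists 0 other entries. Klf4 is thus the only protein-coding gene of its stretch, while Map2k7 stands in a row of protein-coding genes. Gene density was not tested as a factor in the number of intervals.

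Map2k7 had more listed intervals than Klf4 at each distance counted. The distances are nested, so the wider counts include the same intervals again. Within 10 kb of the inner stretch, Map2k7 had 2 intervals and Klf4 had 0. Within 25 kb the counts were 3 and 0, and within 50 kb they were again 3 and 0. Of autosomal tiles of these Klf4 lengths, 93.1%, 87.4% and 80.2% also held none. Of tiles of the Map2k7 lengths, 1.72%, 1.67% and 4.0% held as many intervals or more. Within 250 kb Map2k7 had 5 intervals and Klf4 had 1, and within 500 kb they had 7 and 1. As many or more were held by 11.7% and 16.5% of tiles of these Map2k7 lengths. At the Klf4 lengths, 68.5% and 51.7% of tiles held 1 or fewer. Within 1000 kb the counts were 15 and 1, against a median of 4 in autosomal tiles of either length. At the Map2k7 length 13.2% of tiles held 15 or more, and at the Klf4 length 31.7% held 1 or fewer. With 1 library, a difference between these loci has no replicate check and no test was made.

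**Figure D5:**
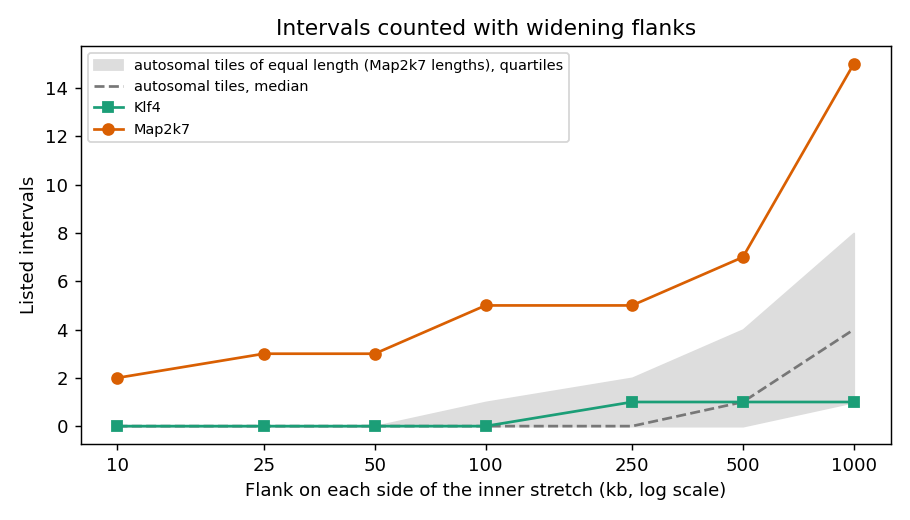
Number of listed intervals (vertical axis) within each flank of the inner stretch (horizontal axis, kb, log scale) at Klf4 (squares) and Map2k7 (circles), with the median (dashed) and quartiles (grey) of autosomal tiles of the lengths used for Map2k7. Map2k7 rises from 2 to 15 intervals and Klf4 stays at 0 up to a flank of 100 kb and at 1 beyond.

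The chromosomes that carry the genes had similar values. Chromosome 4 held 500 intervals, or 3.29 per Mb of span, with medians of 16 for height and 1115 bp for width. Chromosome 8 held 459 intervals, or 3.64 per Mb, with medians of 16 for height and 1173 bp for width.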

How the data were processed

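One ChIP-seq list from mouse leukaemia cells was analysed; the input library was not analysed here. Per the submitters' processing notes, BWA 0.6.1, SICER 1.1 and MACS and the builds hg19 and mm9 are named without a role; read filters, the calling threshold and any input subtraction were not given in the sources used here. The authors deposited a track of summits with a score per peak (called height) and a track of intervals; the other deposited columns are positions. Both tracks were joined by order, and 8148 of 8148 summits lay inside their interval. Interval starts were counted from 1. Positions are taken as mm9. Depth is unknown, so no interval for depth is given.

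Each window was trimmed by 100 kb on each side to give an inner stretch. Any overlap counted. Background shares used tiles of equal length from the first to the last interval of each of the 19 autosomes. All intervals in either window, and the nearest outside an empty one, were named. The counting was tested on simulated data with known answers. The planned count of JNK pathway and KLF and SP family genes with an interval within 10 kb was not run, for want of gene positions in mm9. The members and lists were chosen with earlier results of these data known. Calculations used Python 3.11.15 with pandas 2.3.3 and scipy 1.17.1.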

Additional observations from a re-analysis of the deposited data

How the results depend on the processing

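The Map2k7 window held 3 intervals with a flank of 50 kb and 2 when only intervals at or above the list's median height were kept, both among the 5; a flank of 250 kb, summits inside the window and merging within 1 kb each left 5. The smallest gap between these intervals was 7.07 kb, so merging within 1 kb could not change their number. The Klf4 window held 1 interval with a flank of 250 kb, and 0 in the other alternatives run. With the window empty, a narrower flank, a height filter, summits inside the window and merging could only leave 0. Those settings are therefore no check of the Klf4 count. With only intervals at or above the median height, 22.5% of tiles of 210 kb and 21.8% of tiles of 205 kb held an interval, against 29.7% and 29.5% in the whole list; merging and a grid shifted within the tile moved neither share beyond its 95% exact binomial interval. Shortening or lengthening each inner stretch by 1 kb at both ends, chosen after seeing the data, left 1 interval at Map2k7 and 0 at Klf4. At Klf4 both stretches stay within the empty window, so that count could not change. No replicate could be left out, and no paired analysis was possible because only 1 library was analysed. With depth and threshold unknown, a region under the threshold is not in the list.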
